A study of Mus musculus with 8 samples.

Results

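The T cell and cytotoxic genes described here are 10 genes, chosen by symbol from the 31189 genes of the deposited tables: Cd3d, Cd3e, Cd3g, Cd4, Cd8a, Cd8b1, Foxp3, Gzma, Gzmb and Prf1. They were followed in 8 RNA-seq libraries of mouse colon, from 2 models of adenoma formation with 3 adenomas and 1 adjacent non-tumour section each. ApcMin/+ mice, on the C57BL/6J background, have a mutated copy of Apc, whose product restrains WNT signalling, and their tissue was taken at an age of 110 to 120 days. The other mice were wild-type C57BL/6J animals of 6 to 7 weeks given azoxymethane (AOM), a carcinogen, at 10 mg/kg, and DSS (dextran sulfate sodium, an agent that damages the colon epithelium) at 2% in 3 cycles, with tissue taken 70 days after AOM. The AOM/DSS adenomas were wild type for Apc and had a β-catenin that resists degradation, per the labels. No label ties a sample to a mouse, and each model has a single section, so that p-values reflect only how these samples vary, which may be technical, and assume that a section varies like an adenoma.

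A T cell recognises its target through an antigen receptor whose variable chains cannot signal by themselves and are carried to the surface with the CD3 chains. CD4 and CD8 are co-receptors that bind the antigen-presenting molecule, and mark helper or regulatory cells and cytotoxic cells respectively. Cytotoxic T cells and natural killer (NK) cells kill through perforin, which opens the membrane, and granzymes, which enter the target, while FOXP3 is the lineage factor of regulatory T cells, which restrain immune responses and are abundant in the colon. Some of these genes are also used by other cells: in mice, Cd4 by lymphoid tissue inducer cells, Cd8a by a kind of dendritic cell, and Gzmb by NK cells and mast cells.

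The promoters of the 3 Cd3 genes are shown because these neighbouring genes had nearly parallel levels over the libraries. That of Gzmb is shown because its levels, unlike theirs, overlapped between the adenomas of the 2 models. Each is the 200 bases before the start site in RefSeq (GRCm38.p6), printed 5′ to 3′ along the gene, and 8 of the 10 genes had an entry (Cd4 and Cd8b1 had none). Capitals mark matches, on either strand, to the ETS-like letters AGGAAG, the RUNX-like letters TGTGGT and the E-box letters CANNTG, and these marked matches do not overlap each other.
Cd3g (chr9:44980432-44980631, minus strand): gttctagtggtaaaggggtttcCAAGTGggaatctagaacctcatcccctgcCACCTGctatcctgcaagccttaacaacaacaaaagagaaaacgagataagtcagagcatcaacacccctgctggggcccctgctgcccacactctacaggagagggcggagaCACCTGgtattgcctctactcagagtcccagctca
Cd3d (chr9:44981586-44981785, plus strand): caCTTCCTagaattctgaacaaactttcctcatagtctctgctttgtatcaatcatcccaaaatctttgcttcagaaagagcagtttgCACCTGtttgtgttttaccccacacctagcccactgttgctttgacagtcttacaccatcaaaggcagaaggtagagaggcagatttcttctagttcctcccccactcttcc
Cd3e (chr9:45009612-45009811, minus strand): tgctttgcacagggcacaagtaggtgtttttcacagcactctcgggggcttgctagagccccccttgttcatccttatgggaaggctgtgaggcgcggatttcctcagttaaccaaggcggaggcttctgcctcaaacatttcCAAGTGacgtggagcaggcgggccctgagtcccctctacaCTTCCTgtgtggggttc
Gzmb (chr14:56262335-56262534, minus strand): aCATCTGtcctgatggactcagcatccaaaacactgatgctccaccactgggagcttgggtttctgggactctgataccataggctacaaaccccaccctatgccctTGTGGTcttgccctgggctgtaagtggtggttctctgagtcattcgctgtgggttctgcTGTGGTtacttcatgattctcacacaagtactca
Cd3d and Cd3e each held 1 ETS-like and 1 E-box match, Cd3g held 3 E-box matches, and Gzmb held 2 RUNX-like matches and 1 E-box match. Of 32851 promoters of the same length, 24.7% held AGGAAG, 11.2% held TGTGGT and 58.2% held CANNTG. The GATA-like letters AGATAA, the TATA-like letters TATAAA and the CRE-like letters TGACGT were also searched, and 7.8%, 9.96% and 5.85% of promoters held them, but they are not set in capitals. Cd3g held 1 match to AGATAA and Cd3e 1 match to TGACGT, which there overlaps the E-box match. A match is a description of the sequence only.

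The libraries held 18156741 to 22719895 counts, and levels are given as CPM, counts scaled to a common library size with TMM factors. The limit set by finding no count is 3 counts, which is 0.128 to 0.172 CPM in these libraries and covers counting error only. Of the 10 genes, 9 passed the filter on low counts together with 17209 others, and Prf1 did not. AOM/DSS adenoma 2 stood apart from the other libraries: it had the highest CPM of all 8 libraries for each of the 9 tested genes, as it did for 15.2% of all genes tested. It also had the highest sum of the pan-leukocyte markers Ptprc, Laptm5 and Coro1a, at 618 CPM. The sums of the neutrophil markers and of the mast cell markers were highest in other libraries. Of the 4 neutrophil markers, S100a8 and S100a9 were highest elsewhere, but Cxcr2 (20.2 CPM) and Csf3r (55.95 CPM) were highest in AOM/DSS adenoma 2. Ptprc, which encodes CD45 on all leukocytes, was at 243 CPM there against 56.3 and 69.4 CPM in AOM/DSS adenomas 1 and 3. Values without this library are given where it decides a call or moves a value of the 10 genes strongly. In whole tissue, fewer cells of a type and less RNA per cell cannot be told apart.

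**Figure D1:**
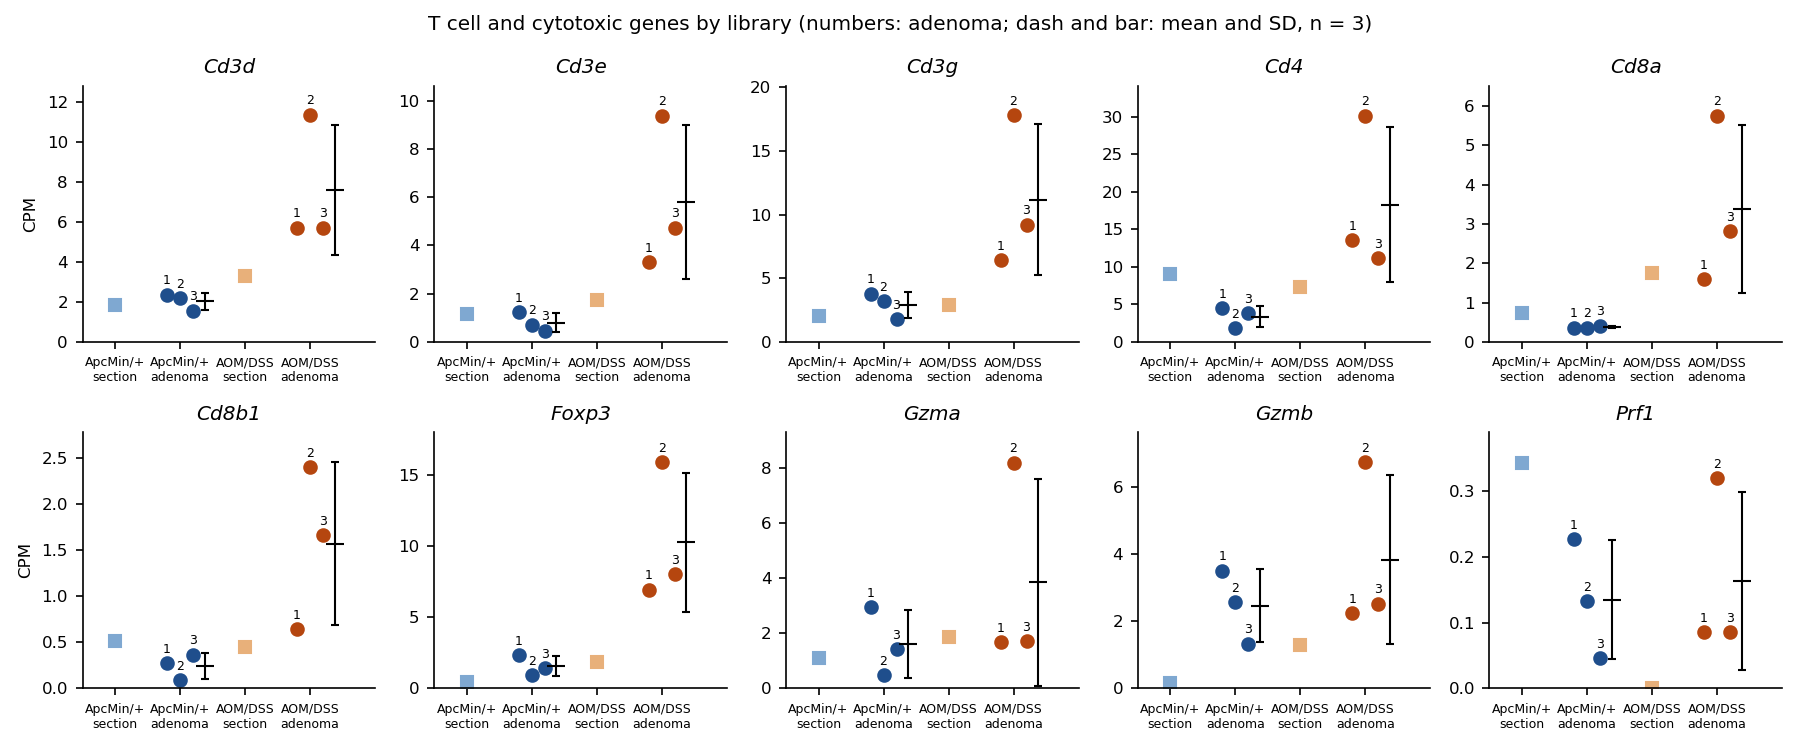
CPM of the 10 genes (y axes, each from 0 with its own range) in the 8 libraries, with squares for the single sections, numbered circles for adenomas and a dash and bar for the mean and SD of 3 adenomas. The 3 AOM/DSS adenomas lie above all 3 ApcMin/+ adenomas for the Cd3, Cd4, Cd8 and Foxp3 panels, with overlap for Gzma, Gzmb and Prf1.

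The adenomas of the 2 models differed in genes of the T cell surface and in Foxp3. In AOM/DSS adenomas 7 of the 9 tested genes were higher than in ApcMin/+ adenomas at an adjusted p under 0.05 by edgeR's quasi-likelihood test, where 18.1% of all genes tested were called in either direction. The 7 were Cd3d, Cd3e, Cd3g, Cd4, Cd8a, Cd8b1 and Foxp3, and the granzymes Gzma and Gzmb did not pass. In the same 7 genes every AOM/DSS adenoma lay above every ApcMin/+ adenoma, a pattern found in 22.4% of genes tested. The median log2 fold change of the 9 genes was 2.45, against -0.0067 over all genes tested. Without AOM/DSS adenoma 2 the test called 5 of the 7 (Cd3d, Cd3e, Cd4, Cd8a and Foxp3). Without ApcMin/+ adenoma 1 it called 2, without ApcMin/+ adenoma 2 it called 0 and without ApcMin/+ adenoma 3 it called 3, all with positive fold changes.

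The Cd3 genes encode the γ, δ and ε signalling chains of the receptor complex. Cd3e was at 1.23, 0.709 and 0.458 CPM in ApcMin/+ adenomas 1 to 3, and at 3.30, 9.39 and 4.73 CPM in AOM/DSS adenomas 1 to 3, with 1.15 and 1.75 CPM in the ApcMin/+ and AOM/DSS sections. The lowest AOM/DSS adenoma was thus above the highest ApcMin/+ adenoma and above both sections. The log2 fold change between models was 2.85 ± 0.55 (SE; adjusted p = 0.0195, edgeR). Cd3d was at 2.36, 2.17 and 1.56 CPM in the ApcMin/+ adenomas against 5.71, 11.4 and 5.71 CPM for AOM/DSS adenomas, with 1.83 and 3.30 CPM in the sections. Its groups did not overlap either, and the log2 fold change was 1.90 ± 0.38 (SE; adjusted p = 0.0204, edgeR). Cd3g was at 3.77, 3.19 and 1.79 CPM in the ApcMin/+ adenomas against 6.44, 17.8 and 9.21 CPM for AOM/DSS adenomas, with 2.06 and 2.90 CPM in the sections. Here the log2 fold change was 1.93 ± 0.47 (SE; adjusted p = 0.0351, edgeR), and all 3 Cd3 genes had their lowest adenoma level in ApcMin/+ adenoma 3. Cd3g was not among the genes called by limma on FPKM in any of 3 settings.

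Of the co-receptors, Cd8a, the α chain of CD8, was nearly level among ApcMin/+ adenomas, at 0.363, 0.354 and 0.412 CPM, with 8, 8 and 9 counts. In AOM/DSS adenomas it was at 1.59, 5.76 and 2.81 CPM, and in the ApcMin/+ and AOM/DSS sections at 0.745 and 1.75 CPM. The ApcMin/+ adenomas were the lowest 3 of the 8 libraries, while the AOM/DSS section lay among the AOM/DSS adenomas. The log2 fold change between models was 3.15 ± 0.56 (SE; adjusted p = 0.0157, edgeR), the largest of the 9 genes. Cd8b1, the β chain found mainly on conventional CD8 T cells, had only 6, 2 and 8 counts in the ApcMin/+ adenomas and 15, 45 and 39 in the AOM/DSS adenomas, with 9 counts in each section. It was higher by 2.66 ± 0.72 (SE; log2, adjusted p = 0.0459, edgeR), and its call was lost on leaving out any adenoma except AOM/DSS adenoma 1.

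Cd4 was at 4.45, 1.82 and 3.80 CPM in ApcMin/+ adenomas and at 13.6, 30.2 and 11.2 CPM in AOM/DSS adenomas. Both sections lay between the 2 groups of adenomas, at 9.11 CPM in ApcMin/+ and 7.35 CPM in AOM/DSS. The log2 fold change between the adenomas of the models was 2.45 ± 0.50 (SE; adjusted p = 0.0225, edgeR). Foxp3 was at 2.31, 0.930 and 1.42 CPM in ApcMin/+ adenomas and at 6.95, 15.9 and 8.02 CPM in AOM/DSS adenomas. Every adenoma of a model was above the section of that model, which was at 0.459 CPM in ApcMin/+ and 1.85 CPM in AOM/DSS. Between models the log2 fold change of Foxp3 was 2.72 ± 0.48 (SE; adjusted p = 0.0156, edgeR). In the annotation of a later build, 4 other genes overlap Foxp3 and 2 overlap Cd3e, and the sources used here do not say whether reads were counted by strand.

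Unlike the Cd3 genes, the tested granule genes Gzma and Gzmb were not called between the models. Within each model, Gzmb ordered the 3 adenomas as the Cd3 genes did. Gzmb, a granzyme that triggers apoptosis, was at 3.49, 2.57 and 1.33 CPM in ApcMin/+ adenomas and at 2.23, 6.72 and 2.52 CPM in AOM/DSS adenomas, so that the groups overlapped. Its log2 fold change between models was 0.63 ± 0.56 (SE; adjusted p = 0.451, edgeR), and without AOM/DSS adenoma 2 it was -0.051. Gzma, a granzyme of another cleavage preference, was at 2.95, 0.487 and 1.42 CPM in ApcMin/+ adenomas and at 1.67, 8.21 and 1.70 CPM in AOM/DSS adenomas. Its log2 fold change was 1.25 ± 0.86 (SE; adjusted p = 0.332, edgeR), and 0.065 without AOM/DSS adenoma 2, which was far above the other libraries. Prf1, which encodes perforin, had 5, 3 and 1 counts in ApcMin/+ adenomas, 2, 6 and 2 in AOM/DSS adenomas, 6 in the ApcMin/+ section and 0 in the AOM/DSS section. It did not pass the filter on low counts at this depth, so its differences between groups were not tested.

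**Figure D2:**
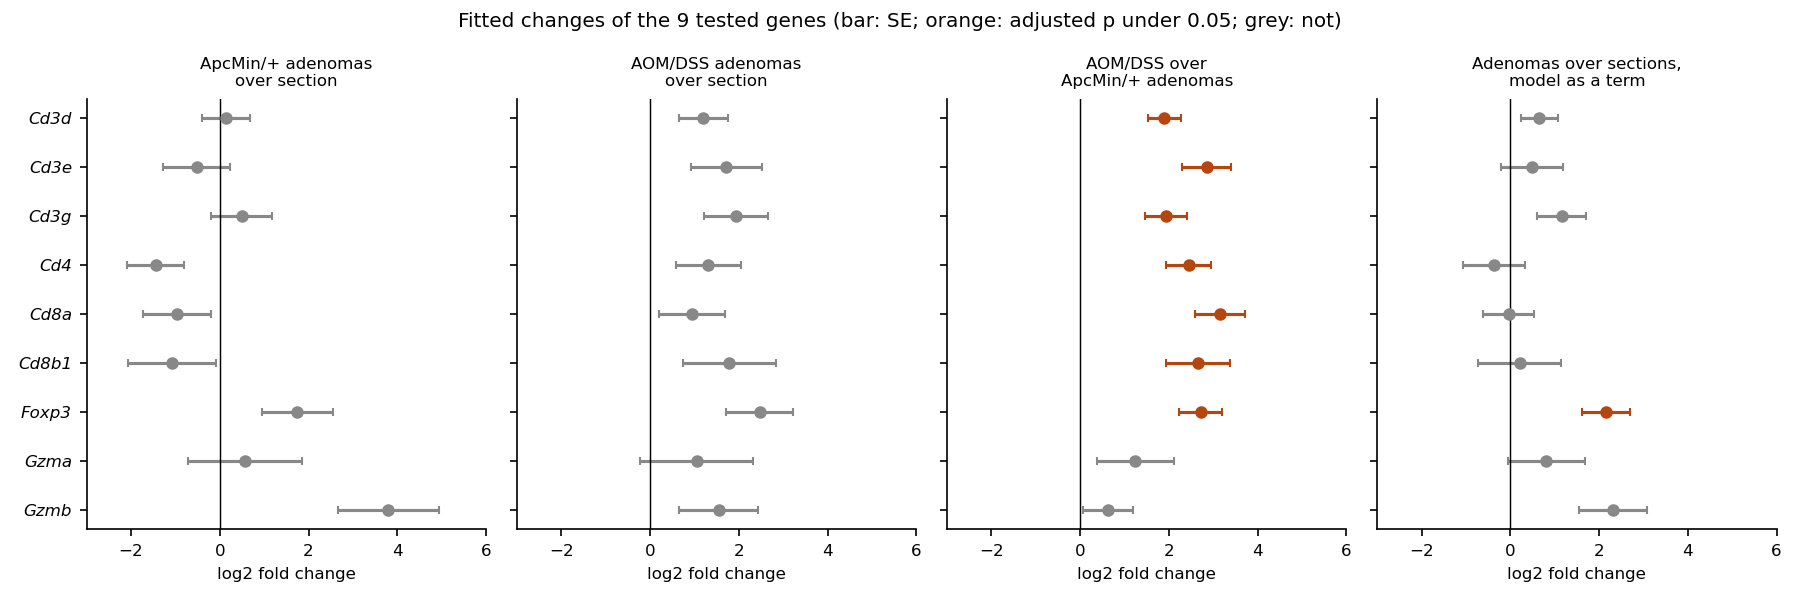
Fitted log2 fold changes (x axis) with their SE for the 9 tested genes (y axis) in 4 comparisons, in orange where the adjusted p is under 0.05 by edgeR. In the comparison of the 2 kinds of adenoma 7 genes are orange, in the change shared by both models Foxp3 is, and against the section of either model none is.

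Against the ApcMin/+ section, none of the 9 tested genes passed in ApcMin/+ adenomas with edgeR, where 16.4% of all genes tested were called. At an unadjusted p under 0.05 there was 1 gene, Gzmb, and DESeq2 called the same gene. Gzmb had 3 counts (0.172 CPM) in the section and 77, 58 and 29 counts in the adenomas, so every adenoma was above the section. The ratio of summed counts was 14.4 (95% counting interval 4.83 to 70.3), and the log2 fold change was 3.80 ± 1.13 (SE; adjusted p = 0.0607, edgeR; 0.0132, DESeq2). It passed with edgeR without ApcMin/+ adenoma 3 (adjusted p = 0.0393) or AOM/DSS adenoma 2 (adjusted p = 0.0415), and not without any other single adenoma. Foxp3, with 8 counts in the section and 51, 21 and 31 in the adenomas, also had every adenoma above the section (log2 1.75 ± 0.80, SE; adjusted p = 0.158, edgeR). These were 2 of 9 genes, where all 3 adenomas were above the section for 41.3% of genes tested.

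Cd4, Cd8a and Cd8b1 lay below the ApcMin/+ section in every ApcMin/+ adenoma, without passing the test. These were 3 of 9 genes, where all 3 adenomas were below the section for 40.0% of genes tested. Their log2 fold changes were -1.44 ± 0.64, -0.97 ± 0.77 and -1.07 ± 0.99 (SE; adjusted p = 0.148, 0.387 and 0.462, edgeR). The Cd3 genes had values near those of the section, at 0.15 ± 0.54 for Cd3d, -0.52 ± 0.76 for Cd3e and 0.50 ± 0.68 for Cd3g (log2, SE). Gzma was at 1.09 CPM in the section, inside the range of the adenomas.

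In AOM/DSS adenomas all 9 tested genes had positive log2 fold changes over their section, from 0.95 for Cd8a to 2.47 for Foxp3, and none passed with edgeR, where 5.01% of all genes tested were called. At an unadjusted p under 0.05 there were 2, Foxp3 and Cd3g, and DESeq2 called Foxp3. Foxp3 had 37 counts in the section and 162, 298 and 188 in the adenomas, and its log2 fold change was 2.47 ± 0.75 (SE; edgeR adjusted p = 0.0920; DESeq2 adjusted p = 0.0142). All 3 adenomas were above the section for 7 of the 9 genes, Cd8a and Gzma being the exceptions, where 41.2% of genes tested had that pattern. The median of the 9 log2 fold changes was 1.55, against 0.138 over all genes tested. Without AOM/DSS adenoma 2 none passed either, and the values fell to 2.01 for Foxp3, 0.79 for Cd3d, 0.75 for Cd4, 0.33 for Cd8a, 0.87 for Gzmb and -0.13 for Gzma. The values of Cd3d, Cd3e and Cd3g were 1.20 ± 0.55, 1.72 ± 0.81 and 1.94 ± 0.73 (SE; adjusted p = 0.198, 0.203 and 0.136, edgeR). Gzmb, with 26 counts in the section and 52, 126 and 59 in the adenomas, was at 1.55 ± 0.88 (SE; adjusted p = 0.281, edgeR).

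Between the sections, the counting interval of the ratio excluded 1 for 5 of the 10 genes. The share of all genes with such an interval was not computed. Over the genes tested, counts also differed beyond counting error between adenomas of the same model, at a chi-square per degree of freedom of 23.6 to 85.3. The AOM/DSS section had 4.04 times the Foxp3 level of the ApcMin/+ section (95% counting interval 1.85 to 10.0) and 7.57 times its Gzmb level (2.32 to 39.1, against 3 counts). Cd8a was at 2.35 times (1.21 to 4.84) and Cd3d at 1.80 times (1.16 to 2.84), while Prf1 had 0 counts against 6, with an interval of up to 0.741 times. The intervals of Cd3e, Cd3g, Cd4, Cd8b1 and Gzma included 1. These are single libraries, so the intervals cover counting error only, and a difference between models cannot be told apart from a difference between these pieces of tissue.

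When the change from section to adenoma was fitted as common to both models, with model as a term, Foxp3 was the 1 gene of the 9 that rose, by 2.15 ± 0.54 (SE; log2, adjusted p = 0.0210, edgeR), where 34.1% of all genes tested were called. It passed without AOM/DSS adenoma 2, and lost its call on leaving out the ApcMin/+ section (2.47, adjusted p = 0.0891) or the AOM/DSS section (1.74, adjusted p = 0.158), each of which leaves the contrast of a single model. Foxp3 also missed the threshold by limma on log2(FPKM + 1), which called Gzmb alone. Gzmb was at 2.32 ± 0.77 (SE; adjusted p = 0.0501, edgeR), on the threshold, and DESeq2 called it (adjusted p = 0.00860). The other 7 lay between -0.36 for Cd4 and 1.16 for Cd3g. The test of whether the 2 models differed in their change called none of the 9 with edgeR, 1 of them (Cd4) being at an unadjusted p under 0.05. Of all genes tested, 0% were called, 1369 were at an unadjusted p under 0.05 and DESeq2 called 180.

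Relative to the summed counts of the 3 Cd3 genes, Foxp3 and Gzmb separated the models in opposite ways. Foxp3 per summed Cd3 was 0.0909 in the ApcMin/+ section and 0.315, 0.153 and 0.374 in its adenomas, and 0.233 in the AOM/DSS section and 0.450, 0.412 and 0.408 in its adenomas. Every AOM/DSS adenoma was thus above every ApcMin/+ adenoma, and the AOM/DSS adenomas were close together at 0.423 ± 0.0232 (SD, n = 3) although their CPM differed. Gzmb per summed Cd3 was 0.475, 0.423 and 0.349 in ApcMin/+ adenomas and 0.144, 0.174 and 0.128 in AOM/DSS adenomas, with 0.0341 and 0.164 in the sections. Here every ApcMin/+ adenoma was above every AOM/DSS adenoma, and the AOM/DSS section was among its adenomas. An exact two-sided permutation test of 3 adenomas against 3 cannot give a p below 0.10, so the ratios are given as descriptions.

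Cd8a per summed Cd3 was 0.0494, 0.0584 and 0.108 in ApcMin/+ adenomas and 0.103, 0.149 and 0.143 in AOM/DSS adenomas, below the section of the model in all 6 (0.148 and 0.220). Summed Cd3 per count of Ptprc was 0.171, 0.211 and 0.133 in ApcMin/+ adenomas and 0.274, 0.159 and 0.283 in AOM/DSS adenomas. The ApcMin/+ section, at 0.101, was below its 3 adenomas, and the AOM/DSS section, at 0.260, lay among its adenomas. AOM/DSS adenoma 2, the highest in CPM, was thus the lowest AOM/DSS adenoma in Cd3 per Ptprc. These ratios of counts are set side by side between libraries and do not compare the level of a gene with that of another. They depend on the measure, since FPKM per count of Cd3g differed by 1.63 times between libraries.

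**Figure D3:**
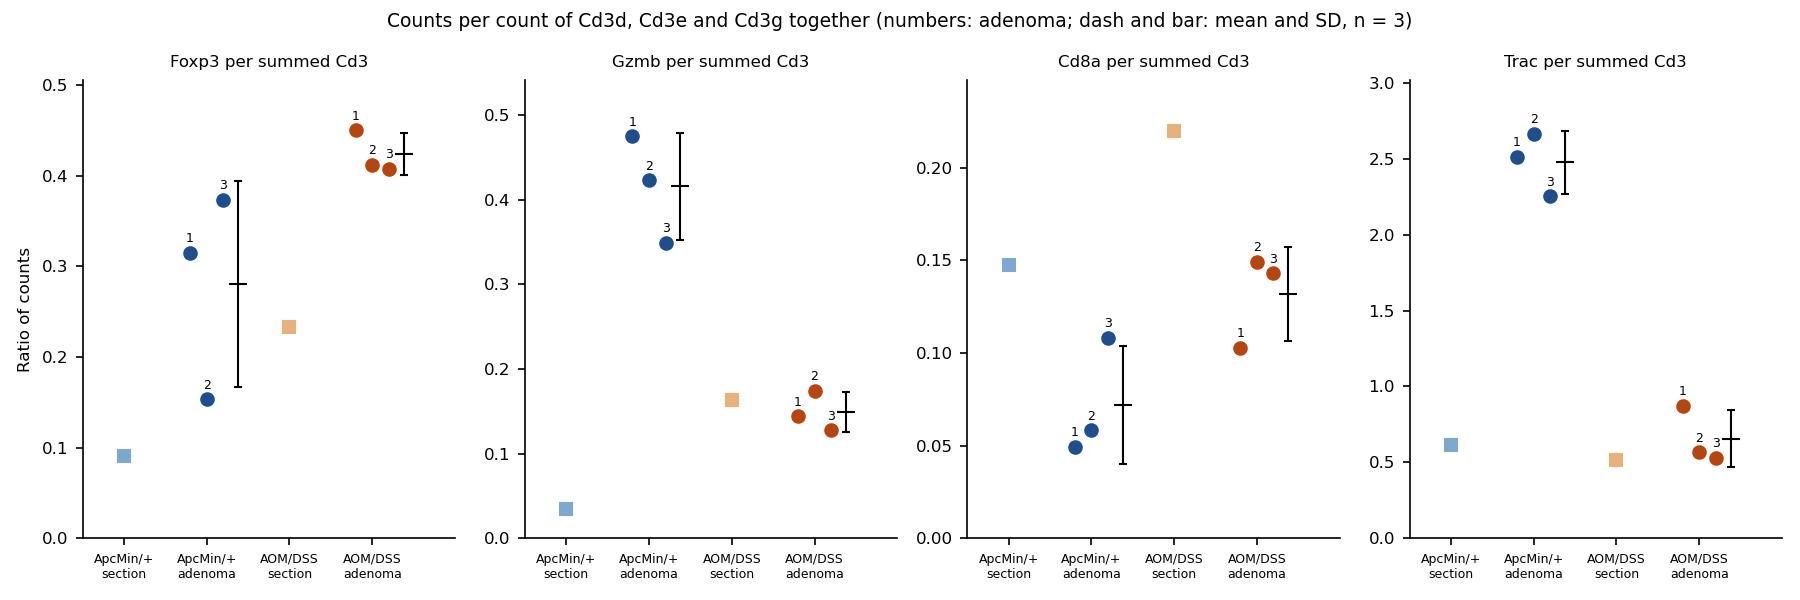
Counts of Foxp3, Gzmb, Cd8a and Trac divided by the summed counts of Cd3d, Cd3e and Cd3g (y axes, from 0) in the 8 libraries, with squares for sections, numbered circles for adenomas and a dash and bar for the mean and SD of 3 adenomas. Foxp3 per Cd3 is highest in AOM/DSS adenomas, while Gzmb and Trac per Cd3 are highest in ApcMin/+ adenomas.

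The genes of the T cell receptor chains were examined after the tables were seen, and α constant and variable segments gave different pictures. Trac, the constant segment of the α chain, had 54 counts in the ApcMin/+ section and 407, 365 and 187 in its adenomas, and 82 counts in the AOM/DSS section and 314, 409 and 245 in its adenomas. Both groups of adenomas were above their section, by 2.05 ± 0.42 (SE; log2, adjusted p = 0.0113, edgeR) in the shared change. The adenomas of the 2 models overlapped, with a log2 difference of 0.08 ± 0.38 (SE; adjusted p = 0.896, edgeR). The α and β variable segments, which T cells join to a constant segment, had 44 summed counts in the ApcMin/+ section and 25, 12 and 16 in its adenomas, against 27 in the AOM/DSS section and 92, 250 and 119 in its adenomas. The α and β variable segments were thus lower in every ApcMin/+ adenoma than in its section and higher in every AOM/DSS adenoma, as were Cd4 and Cd8b1. They were counted over 164 segments, of which 8 passed the filter on low counts. The δ variable segments went the other way in ApcMin/+, with 2 counts in the section and 29, 9 and 5 in the adenomas, against 3 in the AOM/DSS section and 15, 10 and 8 in its adenomas. The γ variable segments had 5 counts in the ApcMin/+ section and 10, 11 and 2 in its adenomas, and 4 in the AOM/DSS section and 17, 33 and 18 in its adenomas.

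Per summed Cd3 count, Trac was 2.51, 2.66 and 2.25 in ApcMin/+ adenomas, and between 0.516 and 0.872 in the other 5 libraries. The β constant segments Trbc1 and Trbc2 together had 197, 200 and 194 counts in ApcMin/+ adenomas and 356, 743 and 430 in AOM/DSS adenomas, with 105 and 147 in the sections. Trbc1 was higher in AOM/DSS adenomas by 1.59 ± 0.43 (SE; log2, adjusted p = 0.0481, edgeR), a call lost in 9 of 16 alternatives, and Trbc2 was at 1.37 ± 0.39 (SE; adjusted p = 0.0532, edgeR). Trdc, the constant segment of the δ chain of γδ T cells, rose in the shared change by 1.43 ± 0.44 (SE; log2, adjusted p = 0.0391, edgeR), a call lost in 7 of 16 alternatives. It had 27 and 41 counts in the sections, 186, 94 and 72 in ApcMin/+ adenomas and 91, 100 and 101 in AOM/DSS adenomas.

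**Figure D4:**
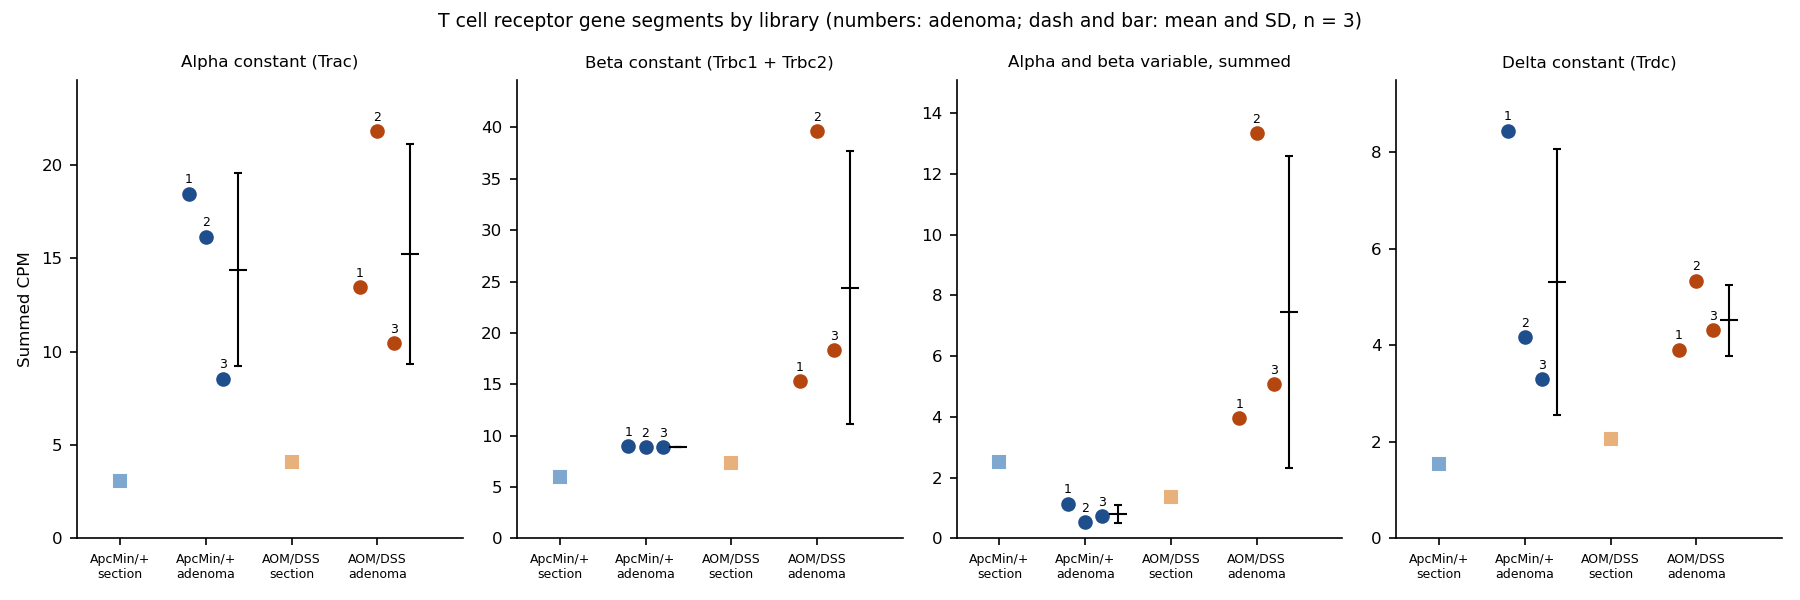
Summed CPM (y axes, from 0) of T cell receptor gene segments in the 8 libraries, with squares for sections, numbered circles for adenomas and a dash and bar for the mean and SD of 3 adenomas. Trac is above the sections in all 6 adenomas, while the α and β variable segments are below the section in the 3 ApcMin/+ adenomas and above it in the 3 AOM/DSS adenomas.

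Of 23 other genes of T cell receptor signalling, 11 were higher and 1 lower in AOM/DSS adenomas than in ApcMin/+ adenomas, with a median log2 fold change of 2.48. Over all genes tested 18.1% were called and the median was -0.0067. Among them, Cd2, an adhesion receptor of T and NK cells, was higher by 2.95 ± 0.56, the adaptor Skap1 by 2.91 ± 0.52, Themis, needed for T cell selection, by 2.73 ± 0.50, and the surface receptor Cd6 by 3.08 ± 0.59 (SE; log2, adjusted p = 0.0184, 0.0156, 0.0174 and 0.0190, edgeR). Cd247, the ζ chain of the receptor complex, was higher by 1.69 ± 0.45 (SE; adjusted p = 0.0434, edgeR), a call lost in 8 of 16 alternatives, and the kinase Lck was at 1.38 ± 0.44 (SE; adjusted p = 0.0716, edgeR). The gene that was lower was Tnfrsf9 (4-1BB, a costimulatory receptor), by -1.18 ± 0.28 (SE; adjusted p = 0.0320, edgeR), a call lost in 7 of 16.

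Zap70, the kinase that binds the phosphorylated receptor complex, took another course. It was at 1.03 CPM in the ApcMin/+ section and 13.7, 10.3 and 9.75 CPM in its adenomas, and at 1.25 CPM in the AOM/DSS section and 5.75, 14.3 and 10.5 CPM in its adenomas. It rose over the section by 3.44 ± 0.65 in ApcMin/+ and 3.02 ± 0.62 in AOM/DSS adenomas (SE; log2, adjusted p = 0.0252 and 0.0483, edgeR), and between the adenomas its log2 difference was -0.14 ± 0.35 (SE; adjusted p = 0.797, edgeR). Tnfrsf9 rose in both as well, by 3.82 ± 0.51 and 2.18 ± 0.46 (SE; log2, adjusted p = 0.0133 and 0.0485, edgeR). In all, 3 of the 23 genes rose in ApcMin/+ adenomas over the section, the third being Thy1, and 2 in AOM/DSS adenomas, where 16.4% and 5.01% of all genes tested were called. The AOM/DSS calls of Zap70 and Tnfrsf9 were each lost in 8 of 15 alternatives, among them leaving out AOM/DSS adenoma 2 (adjusted p = 0.0590 and 0.0705, edgeR).

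Of genes that mark or restrain regulatory and exhausted T cells, 8 of 16 were higher and 1 lower in AOM/DSS adenomas than in ApcMin/+ adenomas, where 18.1% of all genes tested were called. Those higher included Ikzf2 (Helios, a factor of regulatory T cells) by 2.04 ± 0.31, the inhibitory receptor Lag3 by 2.31 ± 0.39 and the costimulatory receptor Tnfrsf4 (OX40) by 2.44 ± 0.44 (SE; log2, adjusted p = 0.0102, 0.0137 and 0.0158, edgeR). For Ikzf2 the AOM/DSS section, at 26.6 CPM, lay among its adenomas at 18.9, 29.0 and 16.2 CPM. The ApcMin/+ section, at 9.8 CPM, lay above its adenomas at 4.6, 4.2 and 6.8 CPM. Ctla4, an inhibitory receptor of regulatory and activated T cells, was higher by 1.93 ± 0.45, and Il2ra, a chain of the IL-2 receptor, by 1.86 ± 0.48 (SE; log2, adjusted p = 0.0326 and 0.0417, edgeR). The call of Il2ra was lost in 10 of 16 alternatives, and that of Ctla4 in 5. Ctla4 was also called in the shared change, higher by 1.92 ± 0.54 (SE; log2, adjusted p = 0.0297, edgeR). There 3 of the 16 genes were called higher and 0 lower, where 34.1% of all genes tested were called. Of the 16, 12 had positive fold changes, while Ikzf2 was at -0.63 (log2) and did not pass. The gene that was lower was Il1rl1, the IL-33 receptor of mast cells, type 2 innate lymphoid cells and some colon regulatory T cells, which was at 6.30 CPM in the ApcMin/+ section and 190, 393 and 248 CPM in its adenomas, and at 6.45 CPM in the AOM/DSS section and 61.0, 34.5 and 75.8 CPM in its adenomas. Il1rl1 rose over both sections and was lower in AOM/DSS than in ApcMin/+ adenomas by -2.28 ± 0.37 (SE; log2, adjusted p = 0.0126, edgeR).

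Of 23 other NK and cytotoxic genes, 19 were tested. Between the models 17 of the 19 had positive log2 fold changes, with a median of 1.93 against -0.0067 over all genes tested. Over all genes tested 18.1% were called in either direction, and 1761 of 17218 were called higher. In AOM/DSS adenomas 5 of the 19 were higher than in ApcMin/+ adenomas, and 0 were lower. They included Klrg1, a receptor of effector cells, by 1.93 ± 0.37, the granule protease Ctsw by 2.72 ± 0.67, the chemokine Xcl1 by 3.72 ± 0.95 and the death ligand Fasl by 3.44 ± 0.91 (SE; log2, adjusted p = 0.0190, 0.0373, 0.0404 and 0.0433, edgeR). Without AOM/DSS adenoma 2 Klrg1 passed and Ctsw, Xcl1 and Fasl did not (adjusted p = 0.0710, 0.0729 and 0.0891, edgeR). Cd244, a receptor of NK and other cytotoxic cells that mast cells also carry in mice, was the 1 gene of the list that rose over the section in each model. It was at 1.60 CPM in the ApcMin/+ section and 20.7, 18.0 and 23.6 CPM in its adenomas, and at 2.45 CPM in the AOM/DSS section and 13.3, 18.1 and 14.4 CPM in its adenomas. In ApcMin/+ adenomas, where Gzmb was above its section, Ncr1, the defining NK receptor, was at or under the limit of 3 counts, at 0.0908, 0.133 and 0.0458 CPM, with 0.516 CPM in the section. Klrd1 (CD94) was at 1.04, 1.64 and 0.733 CPM there, with 1.55 CPM in the section. Of the other NK markers, Klrb1c was at 0.182, 0.0443 and 0 CPM in these adenomas, with 0.974 CPM in the section. Klre1, which was not tested, was at 0, 0 and 0.0916 CPM, with 0.401 CPM in the section. Eomes went the other way, at 0.590, 0.222 and 0.229 CPM, with 0.115 CPM in the section, under the limit. The part of NK cells in the Gzmb values was not tested.

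Mast cell transcripts were also above the sections in every adenoma. The 5 mast cell markers summed to 5.27 CPM in the ApcMin/+ section and 90.9, 33.5 and 46.7 CPM in its adenomas, and to 15.4 CPM in the AOM/DSS section and 174, 63.7 and 159 CPM in its adenomas, and all 5 rose in the shared change. None was at 0 in any library. AOM/DSS adenoma 2, the highest library for Gzmb, was the lowest AOM/DSS adenoma for this sum. The part of mast cells in the Gzmb values was not tested.

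Some genes on the list of helper lineage factors and cytokines were sparse, while others were not, such as Ahr at 24.4 to 70.2 CPM. Tbx21 (T-bet, of type 1 helper cells) was at 0 to 0.272 CPM in ApcMin/+ adenomas and at 0.343, 2.13 and 0.256 CPM in AOM/DSS adenomas, and Ifng, the type 1 cytokine, was at 0, 0.0443 and 0 CPM and at 0.300, 1.33 and 0.128 CPM. Neither passed between the models (adjusted p = 0.184 and 0.0575, edgeR), nor did Gata3, of type 2 and some regulatory cells, at 1.48 ± 0.43 (SE; log2, adjusted p = 0.0574, edgeR). Il17f, a type 17 cytokine, was higher in AOM/DSS adenomas by 3.48 ± 0.58 (SE; log2, adjusted p = 0.0131, edgeR), and the AOM/DSS section, at 2.65 CPM, lay among its adenomas at 2.44, 7.47 and 3.37 CPM. Of 17 genes on this list 12 were tested, and between the models 1 was higher (Il17f) and 1 lower (Ahr). Over all genes tested 18.1% were called.

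Transcripts of some other leukocytes differed between the models as well, where 18.1% of all genes tested were called. All 4 B cell markers were higher in AOM/DSS adenomas. They summed to 2.66 to 8.08 CPM in ApcMin/+ adenomas, 33.1 to 337 CPM in AOM/DSS adenomas and 68.5 and 52.2 CPM in the sections, and none was at 0 in any library. Of 5 dendritic cell markers 3 were higher and of 4 macrophage markers 1, the former including Clec9a, of the dendritic cells that also carry Cd8a, by 2.56 ± 0.62 (SE; log2, adjusted p = 0.0351, edgeR). Ptprc was at 1.88 ± 0.57 (0.92 without AOM/DSS adenoma 2) and the macrophage receptor Csf1r at 0.99 ± 0.28 (SE; log2, adjusted p = 0.0628 and 0.0519, edgeR), and neither passed. Of 4 neutrophil markers none was higher and 1 was lower in AOM/DSS adenomas, S100a8, a calcium-binding protein of neutrophils, by -1.68 ± 0.44 (SE; log2, adjusted p = 0.0415, edgeR). Itgae, the integrin that holds T cells in the epithelium, was higher by 2.00 ± 0.40 (SE; log2, adjusted p = 0.0206, edgeR), with 5 of 16 intraepithelial and homing genes higher and 1 lower. Their part in the levels of the T cell genes was not tested. Muscle transcripts were higher in the sections, where 4 smooth muscle markers summed to 3113 and 5154 CPM, against 62.8 to 751 CPM in adenomas. Its part in the fold changes against the sections was not tested.

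The genes whose levels over the 8 libraries were most like the mean of the 3 Cd3 genes were Rasgrp1, Rinl, Il27ra, Gpr132, Amz1 and Dok3, among 14391 genes compared. Their root mean square differences from the Cd3 mean, on centred log2 CPM, were 0.185 to 0.244, where the Cd3 mean itself had an SD of 1.17. Rasgrp1 was at 2.84 to 4.77 CPM in ApcMin/+ adenomas and at 11.7 to 31.5 CPM in AOM/DSS adenomas. The genes most like the mean of Gzma, Gzmb and Prf1 were B430306N03Rik, Trim30b, Fgr, Serpina3g, Itgb2 and Csf2rb, at 0.211 to 0.299, where that mean had an SD of 0.933. No gene was named under both means.

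The deposited FPKM values, which are scaled by transcript length, differ from the counts for Cd4 and Cd3g. For the other 8 genes, in the libraries with enough counts to compute it, FPKM per count differed by at most 1.11 times between libraries, against 1.63 times for Cd3g and 5.70 times for Cd4. Over 8890 well-counted genes the median of this quantity was 1.14 and its 90th percentile 1.59. In the authors' deposited table the ratio of ApcMin/+ adenoma 2 to its section was 0.08 for Cd4, where the ratio of CPM was 0.199. The authors' deposited table gave 3.20 for Cd3g in ApcMin/+ adenoma 1, where the ratio of CPM was 1.83. The cause was not tested.

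The ratios in the authors' deposited table followed from FPKM values with 1 added, within 0.0159 for all 10 genes, and this narrows the ratios of genes with low FPKM. For Gzmb the authors' deposited table gave 4.64, 3.51 and 2.20 in ApcMin/+ adenomas, where the ratios of CPM were 20.3, 14.95 and 7.72. For Foxp3 the authors' deposited table gave 1.62, 1.16 and 1.31, where the ratios of CPM were 5.05, 2.03 and 3.10. By FPKM with 1 subtracted, Cd8a was at 0.10 to 0.11 in ApcMin/+ adenomas and at 0.45 to 1.57 in AOM/DSS adenomas, and Foxp3 at 0.32 to 0.84 and at 2.59 to 5.68.

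**Figure D5:**
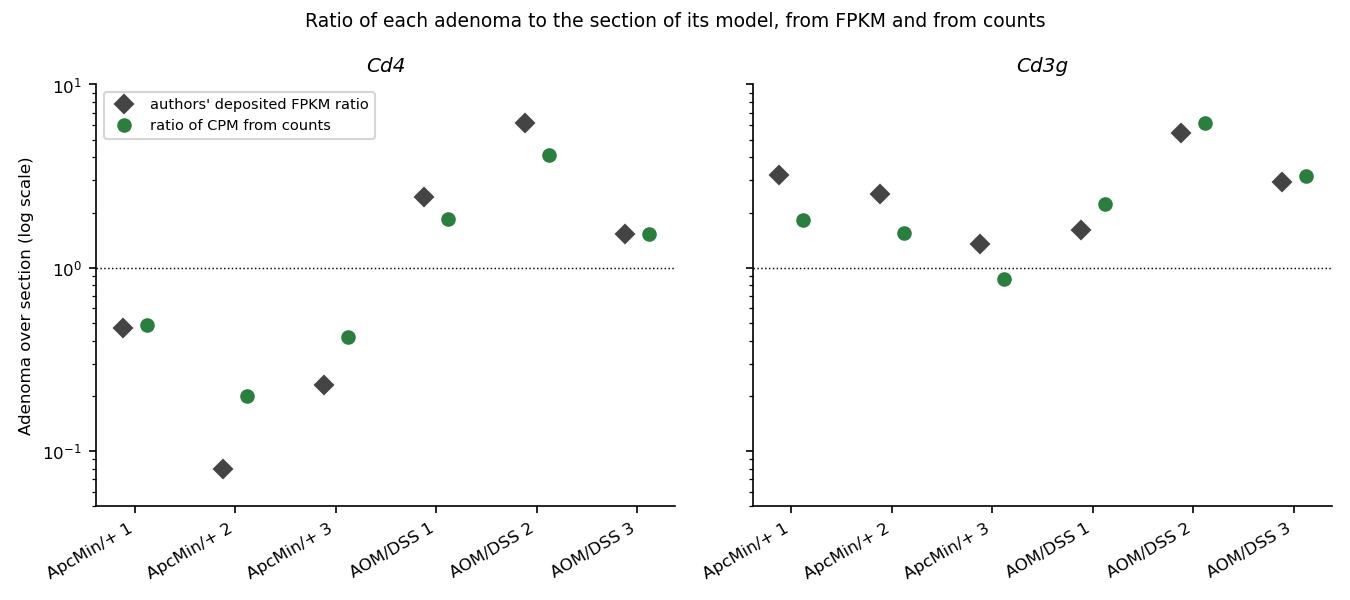
Ratio of each adenoma to the section of its model (y axis, log scale, dotted line at 1) for Cd4 and Cd3g, from the authors' deposited table (diamonds) and from CPM (circles). For Cd4 in ApcMin/+ adenoma 2 the authors' ratio is 0.08 and the CPM ratio 0.199, while for Cd3g the authors' ratios are above the CPM ratios in ApcMin/+ and below them in AOM/DSS adenomas.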

How the data were processed

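Colon RNA from 8 samples was sequenced as single reads after a TruSeq RNA preparation, per the labels' protocols, and samples were grouped by model and tissue from the labels. The authors deposited estimated counts per gene, FPKM values and a table of ratios of adenoma to section, per the file headers. Reads were placed on mm9 according to the genome build listed in the labels, per the submitters' processing notes. The aligner, the counting tool, the annotation and the use of strand were not given in the sources used here. The lowest deposited count and FPKM was exactly 1 in every library. Over 677 genes with low counts, the median SD between libraries of log2 FPKM per count was 0.368 as deposited and 0.0756 after 1 was subtracted from both. So 1 was subtracted from the deposited values, and the estimated counts were rounded to whole numbers.

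Differences were tested with edgeR 4.0.16 (R 4.3.3; quasi-likelihood test, TMM scaling, filter by expression over the 4 groups with minimum count 10 and minimum total 15). This kept 17218 genes, over all of which the Benjamini-Hochberg adjustment ran, with 0.05 as the threshold for a call. The SE of a log2 fold change is its size over the root of its F statistic. The fit of 4 group means had 4 residual degrees of freedom, and the fit with model and tissue terms had 5. The fits were tested on simulated counts. Alternatives used DESeq2 1.42.0, limma 3.58.1 on log2(FPKM + 0.1) or log2(FPKM + 1), other scalings, no filter, and leaving out libraries. Intervals for ratios are exact, at 95%.

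The members and gene lists were chosen with earlier results of these data known. From 13 other lists, counts were made for every list, and the genes named are up to 4 called genes with the smallest p per list and comparison, and 17 genes named whatever their values, of which the text gives a part. Results of 2 of these genes are not reported here. The lists of receptor constant segments were added after seeing the data. The 6 genes most like a mean had the smallest root mean square difference, among tested genes whose mean log2 CPM was 0 or more.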

Additional observations from a re-analysis of the deposited data

Results flagged for a closer look

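Cd4 and Cd8b1 differed in direction between the models: all 3 ApcMin/+ adenomas lay below their section and all 3 AOM/DSS adenomas lay above theirs. For Cd4 the difference between the models' log2 changes was 2.75 ± 0.98 (SE; adjusted p = 0.592 by edgeR's quasi-likelihood test). For Cd8b1 it was 2.86 ± 1.43 (SE; adjusted p = 0.640 by edgeR's quasi-likelihood test), with 2 to 9 counts in each ApcMin/+ library. Neither difference passed after adjustment, and each rests on 1 section per model. Of all genes tested, 40.0% had all 3 ApcMin/+ adenomas below the section and 41.2% had all 3 AOM/DSS adenomas above it. The share with both patterns was not computed.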

How the results depend on the processing

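With each adenoma left out in turn, the members called (of 9) ranged from 0 to 1 in ApcMin/+ adenomas against their section, from 0 to 7 between the models and, the sections included, from 0 to 2 in the shared change. In AOM/DSS adenomas against their section the number stayed at 0. DESeq2 called 1 of the members in ApcMin/+ (Gzmb) and 1 in AOM/DSS (Foxp3), and limma on log2(FPKM + 0.1) called 1 in ApcMin/+ (Gzmb). Between models, limma without a filter called 4. In the shared change 2 members were called with nothing subtracted, by limma on log2(FPKM + 0.1) with or without a filter, and by DESeq2. The causes were not tested. Correlations between the models of same-numbered adenomas' deviations from their group means were -0.0713, -0.265 and -0.237, and those of other pairs -0.0147 to 0.226. Deviations from means of 3 libraries cannot decide whether equal numbers share a mouse or batch, which the labels do not say. Between the models, 0 members were called with the number as a replicate block.

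Directions turned only for members that did not pass. In the shared change, leaving out a section gave -0.52 to 1.73 for Cd3e, -1.44 to 1.32 for Cd4, -0.98 to 0.95 for Cd8a and -1.08 to 1.79 for Cd8b1, and limma on FPKM gave Cd8a 0.17, 0.14 and 0.17 with pseudocounts of 0.1, 1 and 0.1 without a filter. Leaving out an adenoma gave -0.19 to 1.00 for Gzma in ApcMin/+, -0.13 to 1.42 for Gzma in AOM/DSS, -0.70 to 1.25 for the difference of Gzma between these changes, and -0.051 to 0.96 for Gzmb between the models.

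Counts over all genes moved more. Leaving out adenomas gave 354 to 4419 of all genes called in ApcMin/+ (2824 in full), 0 to 2055 in AOM/DSS (862) and 779 to 2157 between the models (3122; 541 with the block, 1972 by limma without a filter). DESeq2 called 4406, 2895 and 4327, and the libraries of ApcMin/+ alone gave 951. The shared change (5871) fell to 880 without the ApcMin/+ section and 2833 without the AOM/DSS section. The difference between the models' changes (0) gave 180 with DESeq2 and 6, 9 and 369 with the 3 limma settings.

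By FPKM in place of counts, Foxp3 per Cd3 in ApcMin/+ adenomas over the section was 1.94 rather than 3.09, and 0.741 with the added 1 left in. That ratio was chosen after seeing the data. Members with under 10 counts in a library (Prf1, Cd8a, Cd8b1, Foxp3 and Gzmb) are limited by depth. Among other genes, calls against the section were lost in 6 of 15 alternatives for Il1rl1 and 4 of 15 for Cd244 in AOM/DSS and 5 of 15 for Thy1 in ApcMin/+, and between the models in 8 of 16 for Ctsw, 7 of 16 for Clec9a, 7 of 14 for Xcl1 and 6 of 14 for Fasl.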
